A study of Mus musculus with 12 samples.

Results

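The arrays compared here show what mouse B lymphoma cells expressed after losing their B-cell receptor (BCR) while growing beside BCR-positive cells of the same lymphoma, without any inhibitor. The comparison uses the 3 arrays labelled BCR-negative and untreated against the 3 labelled BCR-positive and untreated, which is 6 of the 12 arrays of the series, paired by the lymphoma identifier in the sample titles. The cells came from primary cultures of lymphomas 2564, 2646 and 2676, which the design text calls independent. They arose in l-MYC;B1-8f (λ-MYC) mice of strain C57BL/6J x BALB/c, which carry a MYC transgene and a heavy chain variable region that Cre recombinase can remove. All cultures of the series, the BCR-positive cells included, were transduced with TAT-Cre, a Cre protein that enters cells on its own. Both untreated groups grew for 4 days in a shared culture per lymphoma and were parted by flow cytometric sorting at the time when BCR-negative cells were being lost from the mixture. The other 6 arrays hold the same populations from cultures given CHIR99021, an inhibitor of the kinase GSK3. They serve for comparison and also enter the fit, so the spread behind each test rests on all 12 arrays. Each array is 1 population of 1 lymphoma, so the groups describe these 3 tumours, and both carry the same MYC transgene.

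As background, the BCR is a membrane immunoglobulin whose partners Cd79a and Cd79b pass signals to the kinases Syk and Btk, to PI3-kinase and AKT, to calcium, and to the ERK and NF-κB pathways. AKT holds FOXO transcription factors out of the nucleus and restrains GSK3, and NF-κB is held by inhibitor proteins of the IκB family, several of which are themselves NF-κB target genes. Mature B cells and many B lymphomas depend on a continuing low-level signal from the receptor. MYC drives genes of nucleolar ribosome assembly, nucleotide synthesis and DNA replication.

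Values are log2 expression levels per gene made by the authors with RMA, a method that summarises the probes of a probe set. Levels are given in the order of lymphomas 2564, 2646 and 2676. A difference is BCR-negative minus BCR-positive, the mean of 3 lymphomas on the log2 scale. The value after ± is the standard error (SE) that limma gives. It rests on a spread shared by all groups of the series, the cultures with inhibitor included. It is not the SE of the 3 differences themselves, and can be smaller or larger than that. Genes are called higher or lower at a Benjamini-Hochberg adjusted p under 0.05 in limma, over 18820 genes and with lymphoma as a block.

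The array medians over all probe sets were 4.82, 4.79 and 4.84 in BCR-positive and 4.90, 4.82 and 4.92 in BCR-negative cells. The BCR-negative median was thus slightly higher in every lymphoma, and no arrays held identical values. Of 9 measured B cell markers, 8 lay above the dim level of 4.12, which is the 30th percentile of the genes' means. Ms4a1 was dim. Of T cell markers, 3 of 8 lay above the dim level (Cd3e, Cd8a and Cd2), while Cd3d, Cd3g and Cd4 were dim. The summed linear level of the T cell markers ran from 314.9 to 953.9 in BCR-positive and from 570.1 to 1410 in BCR-negative cells, and that of 10 myeloid markers from 266.3 to 444.2 and from 301.8 to 609.9. The 3 erythroid markers summed to 61.1 to 66.5 and 69.1 to 73.4, the 7 NK cell markers to 90.1 to 100.9 and 92.4 to 129.1, the 9 stromal markers to 188.5 to 191.5 and 189.5 to 199.6, and the 7 dendritic cell markers to 138.5 to 191.4 and 142.4 to 185.7. Of all these markers of other cell types only Cd2 was called, an adhesion receptor of T cells that mouse B cells also carry, which read 7.60, 9.70 and 7.73 in BCR-positive and 8.80, 10.33 and 8.87 in BCR-negative cells and rose by 0.99 ± 0.163 (limma, adjusted p = 0.0201). Cd2 made up most of the summed T cell level, so the higher sums in BCR-negative cells mainly reflect Cd2. The part of other cells in the results below was not tested.

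The variable segment of the deleted receptor was lower in the BCR-negative cells of every lymphoma. Ighv1-72, the segment from which the B1-8 heavy chain is built, read 10.26, 10.51 and 10.38 in BCR-positive cells and 8.60, 9.12 and 7.10 in BCR-negative cells. All 3 BCR-negative arrays lay below all 3 BCR-positive ones, and the lowest was that of lymphoma 2676. Ighv1-72 fell by 2.11 ± 0.331 (limma, adjusted p = 0.0176), and 31.8%, 38.2% and 10.3% of the BCR-positive signal was left. In sorted bulk RNA, fewer cells with the transcript and less transcript per cell cannot be told apart, and related variable segments can add to this probe set.

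Of 18 measured immunoglobulin genes, 2 were called lower and 0 higher, against a background of 2.3% of all genes called lower. The second was Ighg3, a heavy chain constant region, at 5.64, 5.58 and 5.52 in BCR-positive and 5.42, 5.24 and 5.33 in BCR-negative cells, a fall of 0.25 ± 0.0585 (limma, adjusted p = 0.0464). Ighm, the constant region of IgM, read 4.38, 7.60 and 4.27 against 4.37, 7.31 and 4.53 after BCR loss. It lay well above the dim level in lymphoma 2646 only and was not called (-0.02 ± 0.492). Igkc, the kappa light chain, read 6.82, 8.55 and 6.99 against 6.38, 7.54 and 7.23 after BCR loss, lower in 2 lymphomas and higher in 2676 (-0.40 ± 0.267, limma, adjusted p = 0.470). Cd79a and Cd79b, the signalling partners of the receptor, differed by 0.14 ± 0.0773 and 0.01 ± 0.0604 and were not called.

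Over all genes, limma called 791 of 18820 (4.2%), 359 higher (1.91%) and 432 lower (2.3%), and each of the 791 had the same sign in all 3 lymphomas. Rises were larger than falls: 41 genes were called higher by at least 1 on the log2 scale and 3 were called lower by as much, Ighv1-72, Eml1 and Cd36. The median was 0.54 among genes called higher and -0.39 among those called lower, and the median of all genes was -0.0023. Of the called genes, 166 of 359 had all 3 BCR-negative arrays above all 3 BCR-positive arrays and 195 of 432 had them all below. Over all genes tested 988 (5.25%) and 1077 (5.72%) did so. Dim genes gave 3 of the calls higher and 0 of those lower. The shares of all genes set beside the lists below, 1.91% and 2.3%, are therefore smaller than the shares among genes above the dim level.

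**Figure D1:**
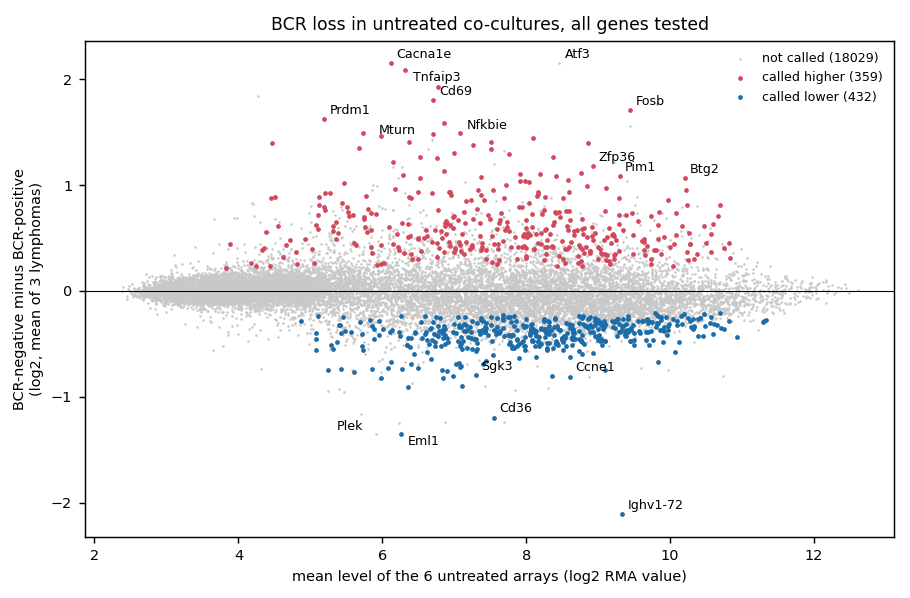
Each of the 18820 genes by its mean level on the 6 untreated arrays (x axis, log2 RMA value) and its difference between BCR-negative and BCR-positive cells (y axis, log2, mean of 3 lymphomas). Red points are the 359 genes called higher and blue points the 432 called lower by limma; the largest rises exceed 2, and below -1 only Ighv1-72, Eml1 and Cd36 are called.

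These counts depend on the fit. Without the lymphoma block limma called 5 genes, and with lymphoma as a random effect it called 75. Fitted to the 6 untreated arrays alone it called 0, and 3527 genes had an unadjusted p under 0.05. Leaving out lymphoma 2646 left 0 called genes (2147 at an unadjusted p under 0.05), leaving out 2676 left 22, and leaving out 2564 gave 919, of which 446 were among the 791. Of single untreated arrays left out, BCR-positive 2564, 2646 and 2676 gave 414, 47 and 45 calls and BCR-negative 2564, 2646 and 2676 gave 1204, 88 and 363. Subtracting array medians gave 350 higher and 738 lower, and cyclic loess 448 higher and 216 lower, so the share of lower calls, 54.6% here, became 67.8% and 32.5%. None of the 154 called genes of the named set changed sign under any of these settings. Each called gene had the same sign in every lymphoma, so changing the block or leaving out a lymphoma could not have changed it. For those settings the kept signs are no test. Since 0 genes passed without lymphoma 2646, no call described was kept without it. Such a fit also holds fewer arrays, so the lost calls do not show that a gene's difference lies mainly in 2646.

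Among the NF-κB factors and their inhibitors 8 of 20 measured members were called higher (1.91% of all genes were) and 0 lower, with a median difference of 0.16. The members called were the subunits Rel, Relb and Nfkb2, the IκB family genes Nfkbia, Nfkbie, Nfkbid and Nfkbiz, and Tnfaip3. Nfkbib (-0.03), Tnip1 (-0.06), Tnip2 (-0.11), Bcl3 (0.30), Cyld (0.18) and Otud7b (0.14), named after their values were seen, were not called. Nfkbie encodes IκBε and read 6.11, 6.63 and 6.24 in BCR-positive and 7.24, 8.28 and 7.94 in BCR-negative cells. The groups did not overlap and the rise was 1.50 ± 0.106 (2.82-fold, limma, adjusted p = 0.000577), among the smallest p of any gene. Tnfaip3, the ubiquitin-editing enzyme A20 that shuts off NF-κB signalling, read 4.76, 6.23 and 4.85 against 6.38, 8.68 and 7.03 after BCR loss, with lymphoma 2646 highest in both populations. It rose by 2.09 ± 0.180 (4.25-fold, limma, adjusted p = 0.00149). Nfkbia, which encodes IκBα, read 8.54, 8.42 and 7.64 against 9.15, 9.51 and 9.28 after BCR loss, again with no overlap, and rose by 1.12 ± 0.179 (2.17-fold, limma, adjusted p = 0.0189).

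The nuclear IκB proteins moved the same way. Nfkbid, encoding IκBNS, read 6.61, 6.76 and 6.03 in BCR-positive and 7.79, 7.49 and 6.90 in BCR-negative cells and rose by 0.93 ± 0.194. Nfkbiz, encoding IκBζ, read 5.46, 5.80 and 5.41 against 5.95, 6.74 and 6.15 after BCR loss and rose by 0.72 ± 0.106. Neither overlapped between groups. Of the DNA-binding subunits, Nfkb2, the p100 precursor of the alternative pathway, read 7.07, 6.58 and 5.85 against 7.65, 7.74 and 6.82 after BCR loss and rose by 0.91 ± 0.139, although its levels overlapped between lymphomas. Relb, the partner of p52, rose from 5.08, 5.06 and 4.96 to 5.51, 5.86 and 5.67 (0.65 ± 0.117) with no overlap. Rel, the subunit c-Rel, rose by 0.34 ± 0.0770. In limma the adjusted p of these 5 genes ran from 0.0153 (Nfkbiz) to 0.0435 (Rel). Rela, the subunit p65, differed by 0.10 ± 0.0635 and was not called. It is named after its value was seen.

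Of 24 measured effector genes that NF-κB is known to induce 4 were called higher, against 1.91% of all genes, and 0 lower, with a median of 0.06, and Nfkbid is one of the 4. Irf1, an interferon regulatory factor, read 6.98, 7.63 and 7.17 in BCR-positive and 7.42, 8.53 and 8.45 in BCR-negative cells and rose by 0.88 ± 0.189 (1.84-fold). Ier3, an early-response survival gene, read 4.72, 5.02 and 4.62 against 5.62, 6.00 and 5.13 after BCR loss with no overlap and rose by 0.80 ± 0.104. Birc3, the ubiquitin ligase cIAP2, rose by 0.48 ± 0.104, least in lymphoma 2564. Their adjusted p in limma was 0.0363, 0.00963 and 0.0389.

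The promoter windows of the NF-κB members are shown because several of these genes share a known binding sequence. A window runs from 250 bases before to 50 after a RefSeq transcript start in GRCm38.p6, and the string searched on both strands was an NF-κB consensus: GGGA, any pair of bases, T, any base and CC. It was found in 7 of 11 windows of the called NF-κB members, from 6 genes with a window, in 10 of 21 windows of the whole list, and in 4.01% of all 32851 windows and 4.16% of the 18141 windows of genes tested. One match of Nfkb2 lies in 2 overlapping windows and is counted in both. The members with a match were Nfkb2, Nfkbia, Nfkbid, Rel and Tnfaip3. Each sequence below is written 5′ to 3′ on the gene's strand, with the match in capitals.
Nfkbia (minus strand, chr12:55492598-55492897): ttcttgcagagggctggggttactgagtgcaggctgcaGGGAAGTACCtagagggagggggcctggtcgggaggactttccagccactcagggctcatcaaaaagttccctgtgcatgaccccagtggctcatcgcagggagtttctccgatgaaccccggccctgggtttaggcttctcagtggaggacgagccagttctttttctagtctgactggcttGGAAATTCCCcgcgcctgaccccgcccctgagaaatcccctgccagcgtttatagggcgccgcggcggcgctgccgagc
Nfkb2 (plus strand, chr19:46305445-46305744): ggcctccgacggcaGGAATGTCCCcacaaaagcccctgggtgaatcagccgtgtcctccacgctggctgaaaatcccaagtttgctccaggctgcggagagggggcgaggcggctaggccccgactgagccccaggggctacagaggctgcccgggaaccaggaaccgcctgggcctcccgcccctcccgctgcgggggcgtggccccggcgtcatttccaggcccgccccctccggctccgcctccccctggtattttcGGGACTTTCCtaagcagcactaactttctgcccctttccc
Nfkbid (plus strand, chr7:30422156-30422455): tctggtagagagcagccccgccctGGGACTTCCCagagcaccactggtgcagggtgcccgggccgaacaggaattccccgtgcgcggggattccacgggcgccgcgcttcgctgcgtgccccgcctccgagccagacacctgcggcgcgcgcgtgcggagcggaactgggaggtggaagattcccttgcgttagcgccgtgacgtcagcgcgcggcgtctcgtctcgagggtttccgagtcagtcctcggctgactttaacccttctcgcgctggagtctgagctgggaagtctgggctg
The matches of Nfkbia lie 212 and 29 bases before the start, those of Nfkb2 236 before and 10 after it, and that of Nfkbid 226 before it. A match is a string in this window and no binding was measured.

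Immediate early genes, which cells switch on within minutes of a stimulus, were the list with the largest median, 0.62, and 9 of 34 measured members were called higher, against 1.91% of all genes, and 0 lower. Fosb, an AP-1 subunit, read 8.16, 9.57 and 8.03 in BCR-positive and 10.23, 11.26 and 9.40 in BCR-negative cells. The levels overlapped between lymphomas, but each lymphoma rose, by 2.07, 1.69 and 1.37, and the mean rise was 1.71 ± 0.365 (3.27-fold, limma, adjusted p = 0.0359). Jun, its usual partner, read 9.37, 9.85 and 9.99 against 10.32, 10.93 and 10.85 after BCR loss with no overlap and rose by 0.96 ± 0.216 (limma, adjusted p = 0.0427). Egr1, a zinc finger factor induced through ERK, read 7.17, 8.85 and 6.18 against 8.19, 10.19 and 6.93 after BCR loss and rose by 1.04 ± 0.208 (limma, adjusted p = 0.0312).

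The starting level of these genes differed between lymphomas. Cd69, a surface marker of recent activation that keeps lymphocytes in tissue, read 4.65, 6.37 and 6.41 in BCR-positive and 7.36, 8.44 and 7.04 in BCR-negative cells. Its rise of 1.80 ± 0.398 (3.48-fold, limma, adjusted p = 0.0397) was made up of 2.70, 2.07 and 0.63, so lymphoma 2676 contributed least. Klf6, a zinc finger factor that is also on the FOXO list, read 6.34, 6.98 and 6.39 against 7.37, 8.81 and 7.68 after BCR loss and rose by 1.38 ± 0.277 with no overlap. Zfp36, an mRNA decay factor, read 7.89, 8.87 and 8.27 against 9.03, 10.29 and 9.24 after BCR loss and rose by 1.18 ± 0.174. Btg2, an antiproliferative gene, read 10.19, 9.70 and 9.13 against 10.65, 11.01 and 10.54 after BCR loss and rose by 1.06 ± 0.248. Klf10, a growth-restraining zinc finger factor, rose by 0.40 ± 0.0616. Their relatives on the list Zfp36l1 (-0.43 ± 0.141) and Btg1 (0.48 ± 0.118), looked up after these values were seen, were not called. Klf6, Zfp36, Btg2 and Klf10 had adjusted p in limma from 0.0153 (Zfp36) to 0.0464 (Btg2).

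Several members with large differences were not called. Atf3, a stress-induced factor, read 6.66, 8.12 and 7.36 against 8.31, 10.46 and 9.82 after BCR loss, a non-overlapping difference of 2.15 ± 0.550 with an adjusted p of 0.0578 in limma. Fos (1.22 ± 0.315), Junb (0.85 ± 0.225) and Egr3 (0.79 ± 0.220) had adjusted p of 0.0593, 0.0639 and 0.0746 in limma and are named after their values were seen. Of 18 ERK feedback genes, which are read as a trace of ERK activity, 1 was called higher, against 1.91% of all genes. Dusp6, the phosphatase that acts on ERK, read 4.84, 9.11 and 6.59 against 6.85, 10.30 and 7.41 after BCR loss. It rose by 1.34 ± 0.277 (2.54-fold, limma, adjusted p = 0.0330), most in lymphoma 2564, where it was lowest to begin with. The median of the 18 was 0.12.

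**Figure D2:**
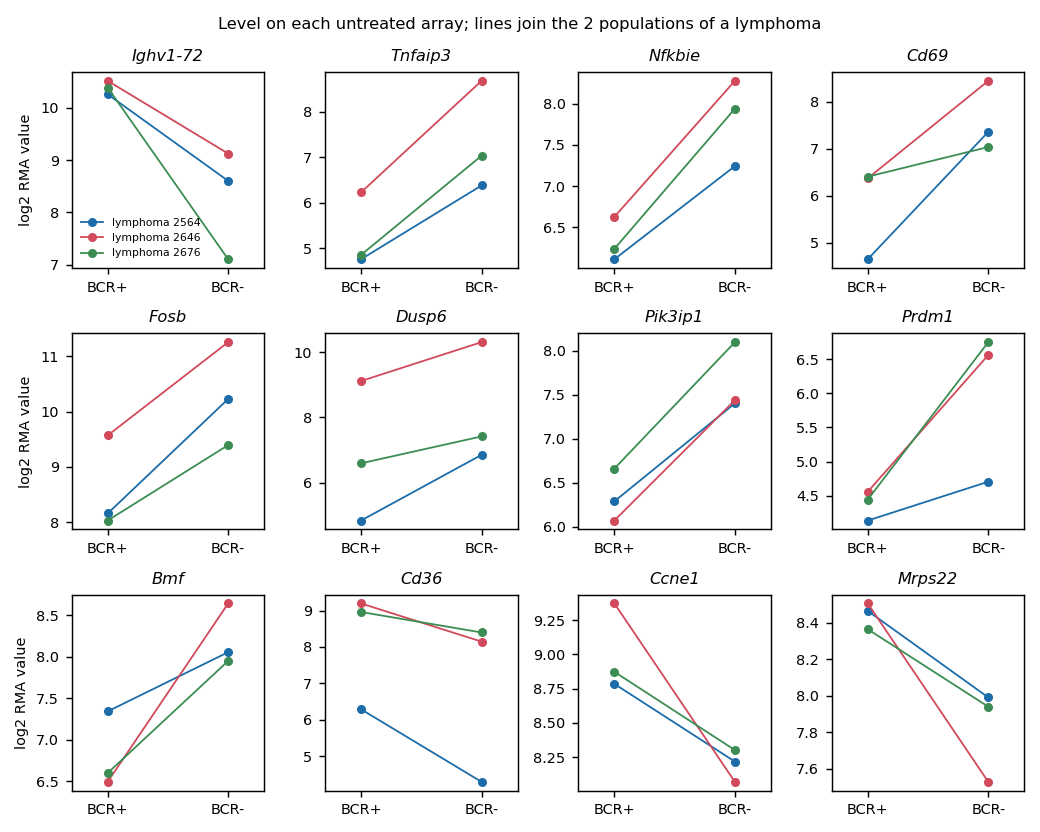
Level of 12 genes (y axis, log2 RMA value, with a separate scale per gene) on each of the 6 untreated arrays, BCR-positive at the left and BCR-negative at the right of each panel, with a line joining the populations of a lymphoma. Every line of Ighv1-72, Cd36, Ccne1 and Mrps22 goes down and every line of the other 8 genes goes up.

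Genes that FOXO factors are known to induce held a group of called rises. Of 37 measured members 10 were called higher, against 1.91% of all genes, and 0 lower, with a median of 0.30, and 33 had a positive difference. Pik3ip1, a membrane protein that inhibits PI3-kinase, read 6.29, 6.07 and 6.66 in BCR-positive and 7.40, 7.44 and 8.10 in BCR-negative cells. The groups did not overlap, and the rises of 1.11, 1.37 and 1.43 were alike in the 3 lymphomas, with a mean of 1.30 ± 0.128 (2.47-fold, limma, adjusted p = 0.00334). Txnip, an inhibitor of thioredoxin and of glucose uptake, read 10.55, 10.29 and 10.03 against 11.21, 11.26 and 10.86 after BCR loss and rose by 0.82 ± 0.116 (limma, adjusted p = 0.0137). Fbxo32, the ubiquitin ligase atrogin-1, read 5.66, 5.31 and 5.24 against 6.05, 6.20 and 6.02 after BCR loss and rose by 0.68 ± 0.0831 (limma, adjusted p = 0.00715).

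Irs2 and Igf1r, which feed PI3-kinase, were also among the called members. Irs2, an adaptor of the insulin and IGF receptors, read 5.42, 6.48 and 5.31 against 6.04, 8.10 and 6.36 after BCR loss, with lymphoma 2646 highest in both populations. It rose by 1.09 ± 0.169 and Igf1r, a receptor it serves, by 0.51 ± 0.0963, both with overlapping levels. Insr, the insulin receptor on the same list, looked up after these values were seen, differed by 0.30 ± 0.185 and was not called (limma, adjusted p = 0.420). Gadd45a, a growth arrest gene, read 5.71, 6.02 and 6.15 against 6.17, 7.32 and 7.04 after BCR loss and rose by 0.88 ± 0.167. Pink1, a kinase of mitochondrial quality control, rose by 0.52 ± 0.0958 and Cdkn1b, the CDK inhibitor p27, by 0.49 ± 0.111, from 9.57, 9.36 and 9.25 to 9.94, 10.08 and 9.63. For the 5 called genes the adjusted p in limma lay between 0.0171 (Irs2) and 0.0429 (Cdkn1b). Tnfsf10, which encodes the death ligand TRAIL, lay below or close to the dim level in lymphoma 2564. It read 3.66, 5.18 and 6.13 against 4.22, 7.71 and 7.53 after BCR loss and rose by 1.50 ± 0.342 (limma, adjusted p = 0.0441). Foxo1 itself read 9.17, 9.12 and 9.10 against 9.36, 10.08 and 9.49 after BCR loss, without overlap, and was not called (0.51 ± 0.131, limma, adjusted p = 0.0581).

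Txnip was the only called FOXO member whose window held the FOXO string GTAAACA, 1 of 9 windows. It was in 5 of 36 windows of the whole list, against 3.65% of all windows and 2.95% of those of genes tested. Its window is shown with the match in capitals, 121 bases before the start.
Txnip (plus strand, chr3:96557707-96558006): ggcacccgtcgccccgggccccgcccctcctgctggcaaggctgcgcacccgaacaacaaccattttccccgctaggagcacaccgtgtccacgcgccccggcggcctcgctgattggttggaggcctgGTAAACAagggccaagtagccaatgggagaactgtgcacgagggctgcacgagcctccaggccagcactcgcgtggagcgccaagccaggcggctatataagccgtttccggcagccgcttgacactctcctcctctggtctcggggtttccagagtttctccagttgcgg

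Of 30 regulators of PI3-kinase, AKT and mTORC1, 3 were called higher and 2 lower, against 1.91% and 2.3% of all genes. Of 3 measured subunits of PI3-kinase gamma 2 were called. Pik3cg, its catalytic subunit, read 7.17, 9.20 and 8.46 against 7.80, 9.81 and 9.23 after BCR loss and rose by 0.67 ± 0.136, and Pik3r5, its regulatory subunit p101, rose by 0.37 ± 0.0711. The other regulatory subunit, Pik3r6, looked up after other values were seen, differed by 0.39 ± 0.135 and was not called (limma, adjusted p = 0.129). The SGK kinases, relatives of AKT, parted. Sgk1 read 6.21, 7.36 and 7.38 in BCR-positive and 6.90, 8.38 and 8.23 in BCR-negative cells and rose by 0.86 ± 0.159. Sgk3 read 7.33, 7.94 and 7.81 against 6.55, 7.04 and 7.10 after BCR loss, with every BCR-negative array below every BCR-positive one, and fell by 0.80 ± 0.0860 (limma, adjusted p = 0.00493). Pik3c2b, a class II PI3-kinase, fell by 0.37 ± 0.0825. Adjusted p in limma was 0.0273 for Sgk1, 0.0284 for Pik3r5, 0.0316 for Pik3cg and 0.0425 for Pik3c2b.

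Of 26 measured transducers downstream of the receptor 3 were called higher, against 1.91% of all genes, and 0 lower (median 0.10), and of 23 inhibitors of BCR signalling 0 were called (4 at an unadjusted p under 0.05 in limma). Blnk, the adaptor that links Syk to phospholipase C, read 10.19, 10.33 and 10.33 in BCR-positive and 10.59, 11.16 and 10.99 in BCR-negative cells, with no overlap, and rose by 0.63 ± 0.0962 (limma, adjusted p = 0.0170). Vav2, an exchange factor, and Itpr2, a calcium release channel, rose by 0.31 ± 0.0707 and 0.56 ± 0.0859 (limma, adjusted p = 0.0450 and 0.0170). Among inhibitors the smallest p belonged to the phosphatase Ptpn6 (SHP-1), at 8.44, 10.42 and 8.85 against 8.37, 9.57 and 7.98 after BCR loss, and to Ubash3b. Their differences of -0.60 ± 0.148 and -0.65 ± 0.185 were not called (limma, adjusted p = 0.0537 and 0.0802). Syk and Btk, named here after their values were seen, differed by 0.22 ± 0.0688 and 0.19 ± 0.0836 and were not called either.

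Of 33 measured factors of B cell identity 4 were called higher and 2 lower, against 1.91% and 2.3% of all genes, with a median of 0.11. Sox4, a factor of early B cell stages, read 7.58, 7.02 and 8.50 against 8.19, 8.38 and 9.23 after BCR loss and rose by 0.90 ± 0.155 (1.86-fold). Tcf12, an E protein, rose by 0.44 ± 0.0844, Foxp1 by 0.35 ± 0.0694 and Runx1 by 0.48 ± 0.112. Mef2c, which supports the B cell response to the receptor, read 9.72, 10.55 and 10.78 against 8.87, 10.32 and 10.15 after BCR loss and fell by 0.57 ± 0.117. Hhex, a homeobox factor, fell by 0.55 ± 0.119. In limma the adjusted p of these 6 genes lay between 0.0223 (Sox4) and 0.0471 (Runx1). Pax5 and Ebf1, looked up after other values were seen, read 10.21, 10.38 and 10.28 against 10.34, 10.67 and 10.46 after BCR loss, and 10.09, 10.17 and 10.80 against 10.48, 10.70 and 10.84 after BCR loss. Their differences of 0.20 ± 0.113 and 0.32 ± 0.264 were not called.

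A regulator of terminal differentiation rose. Prdm1, which encodes Blimp-1, the factor that ends the B cell programme in plasma cells, read 4.14, 4.56 and 4.44 in BCR-positive and 4.71, 6.56 and 6.75 in BCR-negative cells. It was near the dim level in all 3 BCR-positive arrays, and its rise was smallest in lymphoma 2564. The mean rise was 1.62 ± 0.293 (3.08-fold, limma, adjusted p = 0.0248). The rest of the plasma cell list did not move one way. Of 19 measured members 3 were called higher and 1 lower, against 1.91% and 2.3% of all genes, with a median of -0.10. Dnajb9 and Herpud1, which serve protein quality control in the endoplasmic reticulum, rose by 0.88 ± 0.201 and 0.40 ± 0.0853, and Creld2, another gene of that compartment, fell by 0.46 ± 0.0881. Their adjusted p in limma was 0.0443, 0.0353 and 0.0285.

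Of 14 measured genes of V(D)J recombination, 1 was called higher, against 1.91% of all genes. Xrcc6, the end-joining protein Ku70, read 8.67, 8.58 and 8.26 against 8.94, 9.45 and 8.90 after BCR loss and rose by 0.59 ± 0.118 (limma, adjusted p = 0.0312). Rag2, a subunit of the recombinase, read 6.70, 8.39 and 5.75 against 7.48, 9.43 and 7.53 after BCR loss. It was higher in all 3 lymphomas but not called (1.20 ± 0.347, limma, adjusted p = 0.0814), and Rag1 was not among the genes tested. Dntt, the enzyme that adds nucleotides at the joins, was dim on 5 of the 6 arrays. It read 3.25, 3.53 and 3.26 in BCR-positive and 3.39, 8.38 and 3.78 in BCR-negative cells, so that its difference of 1.84 ± 0.932 came almost wholly from lymphoma 2646 (limma, adjusted p = 0.313).

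Genes of cell death changed at single points. Of 16 measured BCL2 family members 1 was called higher, against 1.91% of all genes. Bmf, a BH3-only killer protein, read 7.34, 6.49 and 6.60 in BCR-positive and 8.06, 8.64 and 7.95 in BCR-negative cells. The rises of 0.71, 2.15 and 1.35 were largest in lymphoma 2646 and the groups did not overlap (1.41 ± 0.215, 2.65-fold, limma, adjusted p = 0.0170). Bcl2l11, the related killer protein BIM, read 8.03, 8.23 and 7.96 against 8.03, 8.47 and 7.68 after BCR loss and differed by -0.01 ± 0.114. Mcl1, a survival protein, differed by 0.21 ± 0.0682 and was not called (limma, adjusted p = 0.108). Of 29 TNF family ligands and receptors 2 were called higher, against 1.91% of all genes. They were Tnfsf10 and Tnfrsf14, the receptor HVEM (0.39 ± 0.0866, limma, adjusted p = 0.0408). Of 26 p53 targets 3 were called higher, against 1.91% of all genes: Btg2, Trp53inp1, which promotes autophagy and death (0.73 ± 0.144), and the repair nuclease Ercc5 (0.43 ± 0.0904). The latter had adjusted p in limma of 0.0312 and 0.0351.

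On the other side of the comparison, DNA replication genes were lower. Of 51 measured members 16 were called lower, against 2.3% of all genes, and 0 higher, all 51 had a negative difference, and the median was -0.31. Ccne1, the cyclin E that drives cells into S phase and belongs to the cyclin list, read 8.78, 9.37 and 8.87 in BCR-positive and 8.22, 8.07 and 8.30 in BCR-negative cells. It fell by 0.81 ± 0.136 (1.76-fold lower, limma, adjusted p = 0.0209), with no overlap and the largest fall in lymphoma 2646. Orc1, the first subunit of the complex that marks replication origins, read 7.86, 7.15 and 7.36 against 7.40, 6.11 and 6.73 after BCR loss and fell by 0.71 ± 0.135. Gins3, a subunit of the replicative helicase, read 8.25, 7.99 and 7.96 against 7.92, 7.16 and 7.50 after BCR loss and fell by 0.54 ± 0.0940. Pole2, a subunit of DNA polymerase epsilon, read 8.61, 8.85 and 9.01 against 8.16, 8.15 and 8.58 after BCR loss and fell by 0.52 ± 0.0914. The last 2 did not overlap between the groups. Orc2 fell by 0.47 ± 0.0786, Rfc1, the clamp loader, by 0.32 ± 0.0541, Rpa1, which coats single strands, by 0.37 ± 0.0689, and Rrm2, the ribonucleotide reductase subunit, by 0.41 ± 0.0750. The adjusted p of these 7 genes in limma lay between 0.0209 (Orc2) and 0.0284 (Orc1).

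Mitotic genes leaned the same way without passing the test: of 52 measured, 49 had a negative difference, 0 were called by limma (19 at an unadjusted p under 0.05), and the median was -0.18. Spc24, a kinetochore protein, differed by -0.48 ± 0.122 and Cdca8, a subunit of the Aurora B complex, by -0.30 ± 0.0788 (limma, adjusted p = 0.0561 and 0.0640). Of 33 cyclins, kinases and their inhibitors 2 were called higher and 1 lower, against 1.91% and 2.3% of all genes. The higher ones were Cdkn1b and Cdc25b, a phosphatase that activates CDKs, at 0.39 ± 0.0723 (limma, adjusted p = 0.0268). The D-type cyclins that B cells use were not called: Ccnd3 read 9.70, 10.12 and 10.22 against 9.70, 10.22 and 10.25 after BCR loss (0.04 ± 0.0559) and Ccnd2 differed by 0.12 ± 0.247.

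The window of Orc1 is shown for the E2F string TTTNNCGC, here read on the reverse strand, 27 bases before the start. The string was in 5 of 16 windows of the called replication genes (14 genes with a window), in 18 of 52 windows of the whole replication list, in 5.17% of all windows and in 6.59% of those of genes tested. The 5 genes were Clspn, Gins3, Mcm8, Orc1 and Pole2.
Orc1 (plus strand, chr4:108579204-108579503): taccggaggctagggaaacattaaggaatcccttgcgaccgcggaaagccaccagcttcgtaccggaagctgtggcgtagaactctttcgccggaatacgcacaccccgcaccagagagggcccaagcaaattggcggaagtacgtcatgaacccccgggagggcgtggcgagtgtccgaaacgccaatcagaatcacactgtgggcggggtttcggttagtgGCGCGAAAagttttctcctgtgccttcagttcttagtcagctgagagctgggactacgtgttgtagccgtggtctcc

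Ribosome assembly in the nucleolus was lower too. Of 73 measured genes 13 were called lower, against 2.3% of all genes, and 0 higher, 71 were negative and the median was -0.26. Rrn3, the factor that recruits RNA polymerase I, read 10.23, 10.13 and 10.35 in BCR-positive and 9.96, 9.84 and 10.06 in BCR-negative cells. The fall was nearly the same in the 3 lymphomas (-0.27, -0.29 and -0.29), the groups did not overlap, and the mean was -0.28 ± 0.0546 (limma, adjusted p = 0.0292). Mrto4, an assembly factor of the large subunit, read 8.83, 8.70 and 8.74 against 8.55, 8.15 and 8.24 after BCR loss and fell by 0.44 ± 0.0798. Wdr74 and Nol10 fell by 0.46 ± 0.0840 and 0.47 ± 0.0806, and Utp6 and Mphosph10, parts of the small subunit processome, by 0.30 ± 0.0585 and 0.35 ± 0.0720. Rrp15 fell by 0.42 ± 0.0841. These 6 adjusted p in limma lay between 0.0223 (Nol10) and 0.0336 (Mphosph10).

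The E-box CACGTG, the string that MYC and its relatives bind, was in 3 of 10 windows of the called nucleolar genes (Ltv1, Rrn3 and Utp18) and in 11 of 68 windows of the whole list. It was in 7.15% of all windows, 8.31% of those of genes tested, 11.5% of those of genes called higher and 12% of those of genes called lower. The window of Rrn3 holds it at 215 and 48 bases before the start.
Rrn3 (plus strand, chr16:13780449-13780748): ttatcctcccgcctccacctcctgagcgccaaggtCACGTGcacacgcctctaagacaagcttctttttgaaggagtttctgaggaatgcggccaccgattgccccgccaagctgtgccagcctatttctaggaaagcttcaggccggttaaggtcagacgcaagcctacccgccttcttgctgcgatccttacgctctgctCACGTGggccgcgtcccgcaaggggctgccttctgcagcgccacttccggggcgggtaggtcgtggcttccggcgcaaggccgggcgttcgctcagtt

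Of the cytosolic ribosomal protein genes 0 of 65 were called by limma (7 at an unadjusted p under 0.05), 57 had a positive difference, and the median was 0.05. The 2 with the smallest p were Rpl26 (0.17 ± 0.0573) and Rps24 (0.14 ± 0.0544), at adjusted p of 0.123 and 0.175 in limma. Of 34 translation factors and tRNA synthetases 1 was called lower, against 2.3% of all genes. The synthetase cofactor Eef1e1 fell by 0.25 ± 0.0593 (limma, adjusted p = 0.0464).

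**Figure D3:**
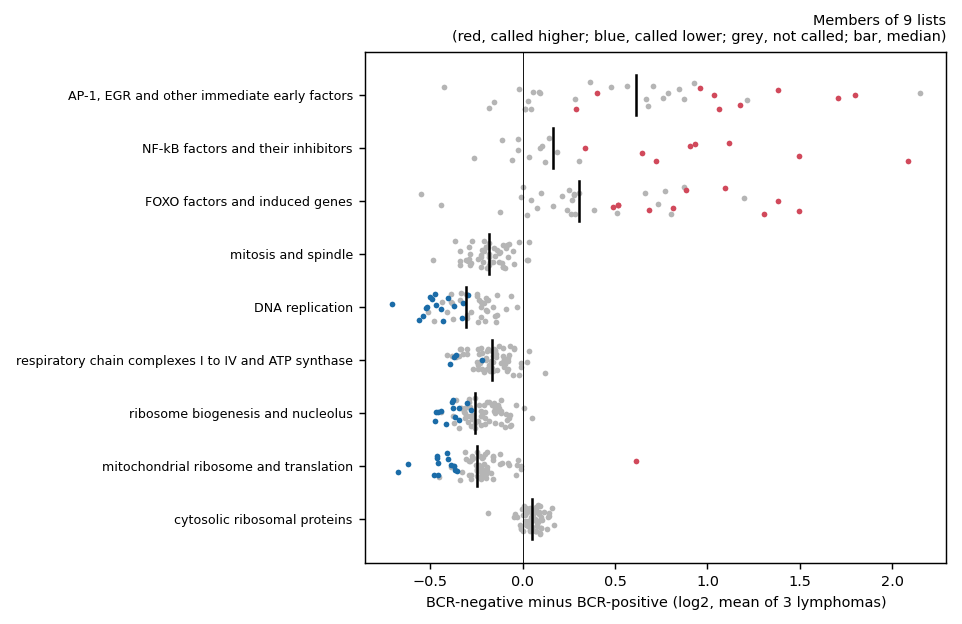
Difference between BCR-negative and BCR-positive cells (x axis, log2, mean of 3 lymphomas) of each measured member of 9 gene lists, 1 list per row, with red points called higher, blue called lower, grey not called and a bar at the median. DNA replication lies wholly below 0, mitochondrial ribosome genes lie below 0 except Mrpl37, and cytosolic ribosomal proteins centre on 0.05.

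The ribosome of mitochondria was lower: of 67 measured genes 13 were called lower, against 2.3% of all genes, and 1 higher, 66 were negative and the median was -0.25. Mrps22, of its small subunit, read 8.46, 8.50 and 8.36 in BCR-positive and 7.99, 7.53 and 7.94 in BCR-negative cells. Lymphoma 2646 fell most, and the mean fall was 0.62 ± 0.109 (1.54-fold lower, limma, adjusted p = 0.0233). Mrpl32, of its large subunit, read 8.14, 7.87 and 8.02 against 7.55, 7.54 and 7.50 after BCR loss and fell by 0.48 ± 0.0620 (limma, adjusted p = 0.00952). Mrpl18 read 9.28, 9.22 and 9.16 against 8.78, 8.61 and 8.89 after BCR loss and fell by 0.46 ± 0.0707 (limma, adjusted p = 0.0170). None of the 3 overlapped between groups. Gfm1, the mitochondrial elongation factor G, fell by 0.46 ± 0.0817 (limma, adjusted p = 0.0241). The single exception was Mrpl37, which read 10.29, 10.11 and 10.10 against 10.85, 10.93 and 10.55 after BCR loss and rose in every lymphoma (0.61 ± 0.0907, limma, adjusted p = 0.0153).

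Of 69 respiratory chain subunits 4 were called lower, against 2.3% of all genes, and 0 higher, 66 were negative and the median was -0.17. The 4 were Ndufb6, Ndufv1 and Ndufa4, first described as subunits of complex I, at -0.36 ± 0.0772, -0.37 ± 0.0859 and -0.39 ± 0.0929, and Cox5b of complex IV at -0.22 ± 0.0523 (limma, adjusted p between 0.0354 and 0.0491). Of 33 glycolysis and hypoxia genes 0 were called by limma (7 at an unadjusted p under 0.05), with a median of -0.03. The smallest p in that list belonged to Ankrd37 and Pfkm, at -0.27 ± 0.0880 and -0.25 ± 0.0903 (limma, adjusted p = 0.110 and 0.151). Pdhx, a component of the pyruvate dehydrogenase complex outside these lists, read 7.12, 7.20 and 7.21 against 6.73, 6.70 and 6.94 after BCR loss and fell by 0.39 ± 0.0560 (limma, adjusted p = 0.0139).

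Of 39 genes of nucleotide and one-carbon synthesis 5 were called lower and 1 higher, against 2.3% and 1.91% of all genes, with a median of -0.25. Mthfd2, the mitochondrial folate enzyme, read 10.29, 9.74 and 10.39 against 9.97, 9.07 and 9.93 after BCR loss and fell by 0.48 ± 0.111. Psat1, of serine synthesis, fell by 0.42 ± 0.0932, Dut, which clears dUTP, by 0.43 ± 0.0928, and Gmps, of GMP synthesis, by 0.29 ± 0.0688. The fifth, Rrm2, was described with replication. Ctps2, of CTP synthesis, rose by 0.40 ± 0.0619. For Mthfd2, Psat1, Dut, Gmps and Ctps2 the adjusted p in limma lay between 0.0174 (Ctps2) and 0.0487 (Gmps). Amino acid response and transport genes gave 0 calls of 25 in limma (4 at an unadjusted p under 0.05, median -0.06). The amino acid transporter Slc1a5 and the asparagine synthetase Asns had the smallest p, at 0.41 ± 0.116 and -0.49 ± 0.137 (limma, adjusted p = 0.0798 and 0.0723).

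Cholesterol and fatty acid synthesis genes were negative in 31 of 34, with a median of -0.27 and 2 called lower, against 2.3% of all genes. These were Scd1, the stearoyl-CoA desaturase, and Idi1, of the isoprenoid pathway, at -0.44 ± 0.0925 and -0.32 ± 0.0758 (limma, adjusted p = 0.0353 and 0.0464). Among 29 genes of fatty acid uptake and oxidation 1 fell and 1 rose, against 2.3% and 1.91% of all genes. Cd36, the fatty acid transporter, read 6.29, 9.19 and 8.96 in BCR-positive and 4.30, 8.15 and 8.40 in BCR-negative cells. Its level differed more between lymphomas than between the populations, the largest fall was in lymphoma 2564, where it came close to the dim level, and the mean fall was 1.20 ± 0.263 (2.30-fold lower, limma, adjusted p = 0.0390). Pnpla2, the lipase that empties fat droplets, rose by 0.39 ± 0.0898 (limma, adjusted p = 0.0459).

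Of 36 chaperone and oxidative stress genes 30 had a negative difference, 5 were called lower, against 2.3% of all genes, and 0 higher, and the median was -0.16. Pdia3 and Pdia6, which form disulfide bonds in the endoplasmic reticulum, fell by 0.48 ± 0.0982 and 0.43 ± 0.101, Hsph1 of the cytosol by 0.51 ± 0.120, Hspd1 of mitochondria by 0.29 ± 0.0641, and Gclm, of glutathione synthesis, by 0.26 ± 0.0603. The adjusted p in limma lay between 0.0316 (Pdia3) and 0.0484 (Pdia6). Of 45 lysosome and autophagy genes 2 rose and 1 fell, against 1.91% and 2.3% of all genes. They were Atg2a and Atg9a, which build the autophagosome membrane, at 0.39 ± 0.0812 and 0.27 ± 0.0544, and Ctsh, a lysosomal protease. Ctsh read 7.85, 7.58 and 7.25 against 6.88, 6.54 and 6.57 after BCR loss, with no overlap, and fell by 0.90 ± 0.214 (limma, adjusted p = 0.0491).

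Some surface receptors and signal genes outside the BCR pathway also changed. The gene with the largest called rise was Cacna1e, the pore subunit of an R-type voltage-gated calcium channel, which read 5.01, 4.85 and 5.28 in BCR-positive and 7.48, 7.26 and 6.85 in BCR-negative cells. The groups did not overlap, and the rise was 2.15 ± 0.180 (4.44-fold, limma, adjusted p = 0.00146). Of 42 genes of calcium channels, pumps and sensors 4 were called higher and 2 lower, against 1.91% and 2.3% of all genes. Besides Cacna1e and Itpr2, the kinase Camkk2 and the phosphatase subunit Ppp3ca (calcineurin) rose by 0.29 ± 0.0597 and 0.41 ± 0.0885. The T-type channel Cacna1h fell by 0.56 ± 0.0998 and Camkv, a kinase-like protein, by 0.91 ± 0.214. In limma the adjusted p of these 4 lay between 0.0241 (Cacna1h) and 0.0471 (Camkv).

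Of 38 homing and adhesion receptors 3 were called higher and 1 lower, against 1.91% and 2.3% of all genes. S1pr4, a sphingosine phosphate receptor, read 7.84, 7.83 and 6.72 against 8.56, 9.08 and 7.85 after BCR loss, rising in each lymphoma by 0.72, 1.25 and 1.14 (1.04 ± 0.0985, limma, adjusted p = 0.00278). Cxcr4, the receptor that holds B cells near its ligand in marrow and germinal centres, read 9.72, 9.58 and 9.70 against 9.88, 10.39 and 10.25 after BCR loss and rose by 0.51 ± 0.116, least in lymphoma 2564. Itga6, an integrin that binds laminin, rose by 0.93 ± 0.222, and Itgav fell by 0.51 ± 0.0963. The adjusted p in limma was 0.0441, 0.0487 and 0.0274. Against 1.91% of all genes called higher, Gng2 and Pde4b, a phosphodiesterase of cyclic AMP, rose among 30 genes of G-protein signalling. Their rises were 0.68 ± 0.156 and 0.72 ± 0.0966 (limma, adjusted p = 0.0446 and 0.0111).

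Of 28 Notch pathway genes 2 rose and 1 fell, against 1.91% and 2.3% of all genes. Maml2, a coactivator of Notch, read 5.18, 6.20 and 6.81 in BCR-positive and 6.52, 8.26 and 8.16 in BCR-negative cells and rose by 1.58 ± 0.181 (3.00-fold, limma, adjusted p = 0.00553). Notch1, the receptor, rose by 0.59 ± 0.101, and Jag2, a ligand, fell by 0.32 ± 0.0767 (limma, adjusted p = 0.0221 and 0.0499). Of 31 genes of GSK3, beta-catenin and Wnt signalling 3 rose (Sox4, Tcf7l2 and Tle3) and 1 fell (Tle1), against 1.91% and 2.3% of all genes. In this list 16 had a negative difference. Tcf7l2, a factor that works with beta-catenin, read 7.19, 6.48 and 6.63 against 7.51, 7.60 and 7.41 after BCR loss and rose by 0.74 ± 0.136, and the corepressors Tle3 and Tle1 differed by 0.36 ± 0.0804 and -0.33 ± 0.0598. Adjusted p in limma was 0.0263, 0.0420 and 0.0252. Gsk3b itself read 8.98, 8.97 and 9.48 against 9.04, 9.09 and 9.53 after BCR loss and was not called (0.08 ± 0.0527).

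Of 21 measured genes of the MYC network 3 were called higher and 1 lower, against 1.91% and 2.3% of all genes. Mxd4 was the only called antagonist and Mlx the only called partner. Mxd4, which competes with MYC for its partner MAX, read 8.71, 8.25 and 8.90 in BCR-positive and 9.38, 9.63 and 9.76 in BCR-negative cells. It rose by 0.97 ± 0.157 (1.96-fold, limma, adjusted p = 0.0191) with no overlap. The kinases Pim1 and Pim2, which cooperate with MYC in lymphoma, rose by 1.09 ± 0.160 and 0.88 ± 0.130 (limma, adjusted p = 0.0153 and 0.0153). Pim2 read 8.32, 7.53 and 7.60 against 8.85, 8.83 and 8.43 after BCR loss. Mlx, a MAX-like factor, fell by 0.32 ± 0.0511 (limma, adjusted p = 0.0189). Mouse Myc read 4.46, 4.18 and 4.19 against 4.47, 4.17 and 4.27 after BCR loss, close to the dim level, and differed by 0.03 ± 0.0551. The λ-MYC transgene carries a human MYC gene, as background, so this probe set need not report it.

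Chromatin regulators gave 8 calls higher and 1 lower of 51, against 1.91% and 2.3% of all genes, with a median of 0.12. Hdac11 read 5.21, 5.29 and 5.21 against 5.97, 5.90 and 5.98 after BCR loss, level across the lymphomas in both groups, and rose by 0.71 ± 0.0944 (limma, adjusted p = 0.0102). The Polycomb protein Cbx7 rose by 0.56 ± 0.0833, Hdac5 by 0.47 ± 0.0903, the methyltransferase Ezh1 by 0.43 ± 0.0802, Arid1b of the SWI/SNF complex by 0.37 ± 0.0725 and Arid5a by 0.53 ± 0.111. Kdm5b, a histone demethylase, read 7.75, 5.77 and 4.45 against 7.97, 7.25 and 5.94 after BCR loss and rose by 1.06 ± 0.245, least in lymphoma 2564, where it was highest. Hdac1 fell by 0.25 ± 0.0559. The adjusted p of these 7 genes in limma lay between 0.0153 (Cbx7) and 0.0449 (Kdm5b). Against the same 1.91%, Per1 and Nr1d2 of 19 clock genes rose, by 0.60 ± 0.143 and 0.41 ± 0.0962 (limma, adjusted p = 0.0487 and 0.0454).

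Of 25 antigen presentation genes 2 rose, against 1.91% of all genes. They were the class I genes H2-K1 and H2-T23, at 0.44 ± 0.104 and 0.68 ± 0.145 (limma, adjusted p = 0.0496 and 0.0354). Class I genes are closely related, so their probe sets can share signal. Of 28 interferon response genes 2 fell, against 2.3% of all genes. Isg20 and Ifi35 fell by 0.51 ± 0.110 and 0.32 ± 0.0681 (limma, adjusted p = 0.0362 and 0.0352).

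Other genes among the 15 largest called rises were Pinlyp, an inhibitor of phospholipases, Mturn, Lima1, an actin-bundling protein, Gm4759, Fam13a and Il6st. Il6st, the receptor chain gp130 shared by the IL-6 family, read 8.32, 7.57 and 8.60 in BCR-positive and 9.41, 9.40 and 9.88 in BCR-negative cells and rose by 1.40 ± 0.124 (limma, adjusted p = 0.00169). Mturn read 5.76, 5.93 and 6.19 against 7.31, 7.61 and 7.41 after BCR loss and Lima1 5.64, 5.16 and 4.95 against 6.87, 6.82 and 6.45 after BCR loss. They rose by 1.48 ± 0.0974 and 1.46 ± 0.0970 and shared the smallest adjusted p of all genes in limma, 0.000460. Pinlyp rose by 0.64, 3.10 and 2.04 in the 3 lymphomas (mean 1.92 ± 0.371), Fam13a by 1.41 ± 0.270 and Gm4759, a GTPase-like locus, by 1.45 ± 0.218 (limma, adjusted p = 0.0292, 0.0292 and 0.0164).

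Among the 15 largest called falls, Eml1, a microtubule-binding protein, came after Ighv1-72. It read 5.72, 8.05 and 7.03 against 4.74, 6.55 and 5.46 after BCR loss, with wide spacing between lymphomas, and fell by 1.35 ± 0.218 (limma, adjusted p = 0.0191). The falls of Pard6g, Anxa9, Ehd4, Zdhhc2, Endod1, Adap1, Eno3 and Fancb lay between 0.75 (Fancb) and 0.82 (Pard6g), with adjusted p in limma from 0.0191 (Fancb) to 0.0464 (Endod1). Fancb, a Fanconi anaemia gene of DNA repair, read 7.23, 7.37 and 7.01 against 6.75, 6.25 and 6.36 after BCR loss, and Ehd4, an endocytosis protein, 8.53, 8.61 and 9.12 against 8.13, 7.55 and 8.16 after BCR loss, both without overlap. Of genes that were not called, Plek, Serpinb1a and Rasgrp1 had the largest falls. Each was lower in all 3 lymphomas, but the size differed: -0.08, -2.17 and -1.80 for Plek, -0.24, -1.76 and -1.74 for Serpinb1a and -0.55, -1.14 and -2.02 for Rasgrp1, an activator of RAS. Atp1b1, a subunit of the sodium pump, was the largest uncalled rise after Atf3 and Dntt, at 1.76 ± 0.449 (limma, adjusted p = 0.0575).

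The size of the response differed between lymphomas. The SD of the differences over all genes was 0.218, 0.290 and 0.239 in lymphomas 2564, 2646 and 2676, and 59, 187 and 79 genes rose past 1 while 23, 47 and 31 lay below -1. Of the 791 called genes, 530 had their largest difference in 2646, 149 in 2676 and 112 in 2564. The median over genes called higher was 0.40, 0.71 and 0.51, and over those called lower -0.31, -0.47 and -0.36. Across all genes the differences correlated at r = 0.357 between 2564 and 2646, 0.372 between 2564 and 2676 and 0.592 between 2646 and 2676, where each r is over 18820 genes that are not independent.

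The groups of genes kept these proportions unevenly. DNA replication had medians of -0.17, -0.54 and -0.28 and mitosis -0.07, -0.40 and -0.10 in lymphomas 2564, 2646 and 2676. Immediate early genes stood at 0.46, 0.90 and 0.38 and FOXO members at 0.24, 0.60 and 0.27. Nucleolar genes stood at -0.12, -0.31 and -0.32, and mitochondrial ribosome genes at -0.20, -0.34 and -0.20. The NF-κB factors and inhibitors stood at 0.18, 0.21 and 0.30. The Ighv1-72 signal left was 31.8%, 38.2% and 10.3% of the BCR-positive level in the same order of lymphomas. Its relation to these medians was not tested.

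The same populations from cultures with CHIR99021 show whether these differences hold when GSK3 is inhibited. The comparisons share no array, though they share the lymphomas and the estimate of spread. With the inhibitor 3 of 18820 genes passed the same test (0.0159%), 2 higher (0.0106%) and 1 lower (0.00531%), and 1628 had an unadjusted p under 0.05. They were Ighv1-72 (-2.95 ± 0.331), Mturn (0.84 ± 0.0974) and Foxc1 (0.42 ± 0.0489), each at an adjusted p of 0.0498 in limma. These calls were lost in 7 of 9 other fits, in which 0 genes passed. Of the 359 genes called higher without inhibitor, 345 (96.1%) were also positive with it, and of the 432 called lower 401 (92.8%) were negative, against 52.3% positive and 47.7% negative over all genes. Their medians were 0.54 and 0.27 for the higher genes and -0.39 and -0.13 for the lower ones, without and with the inhibitor. Since these genes were chosen by their size in the untreated cultures, a smaller value elsewhere is no test.

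The direct test, the interaction of BCR loss with CHIR99021, called 0 genes (990 at an unadjusted p under 0.05), so no gene's difference is shown to depend on the inhibitor. The smallest p among negative interactions belonged to Lima1 (-1.10 ± 0.137), Nfkbie (-0.93 ± 0.150) and Tnfaip3 (-1.55 ± 0.255), whose rises were smaller with CHIR99021, at adjusted p of 0.276, 0.830 and 0.830 in limma. Tnfaip3 differed by 0.53 and Nfkbie by 0.57 in the treated cultures. The smallest among positive interactions belonged to Smarca5, a chromatin remodeller, Pdhx and Rfc1, at 0.40, 0.39 and 0.37 (limma, adjusted p = 0.928 for each).

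By list, the medians without and with the inhibitor were 0.62 and 0.13 for immediate early genes, 0.16 and 0.05 for NF-κB factors and inhibitors, and 0.30 and 0.26 for FOXO members. DNA replication stood at -0.31 and -0.03, mitosis at -0.18 and 0.05, nucleolar genes at -0.26 and -0.14 and the mitochondrial ribosome at -0.25 and -0.14. No member of these 7 lists was called with the inhibitor or in the interaction. Without and with the inhibitor, Trp53inp1 of the p53 list differed by 0.73 and 0.71, and of the FOXO list Gadd45a by 0.88 and 0.65 and Cdkn1b by 0.49 and 0.37. Pim2, Nfkb2 and Nfkbid stood at 0.88, 0.91 and 0.93 without and at 0.01, 0.03 and -0.09 with the inhibitor. These single genes were picked here for their values, and none of them was called in the interaction.

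**Figure D4:**
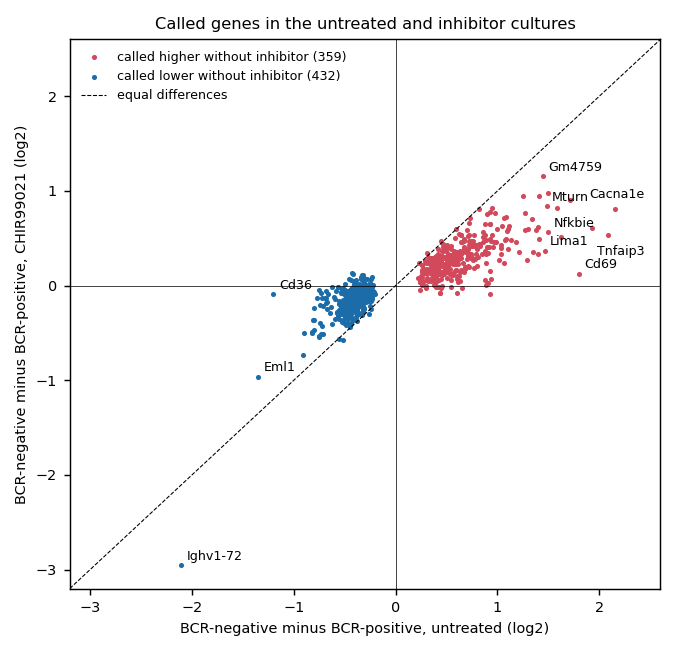
Difference between BCR-negative and BCR-positive cells in untreated cultures (x axis, log2) and in CHIR99021 cultures (y axis, log2) of the 791 genes called in untreated cultures, red higher and blue lower, with a dashed line of equal differences. Most points lie on the same side of 0 in both and nearer to 0 with the inhibitor, Ighv1-72 lies below the line, and the genes were chosen by the x axis.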

How the data were processed

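RNA of sorted cells was measured on 12 one-colour Affymetrix Mouse Gene 1.1 ST arrays, 1 per lymphoma, BCR status and treatment. The deposited log2 values are RMA summaries that the authors computed. The submitters' processing notes name Affymetrix Power Tools, with versions not given in the sources used here. RMA brings the arrays' distributions close together, so a change of most genes in 1 direction would be reduced, and it leaves no depth or counting error. The array medians still differed slightly, and were higher in the BCR-negative cells of every lymphoma. The number of arrays limits the precision.

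Of 35556 probe sets, 21218 have 1 gene symbol in GEO's platform annotation, 1881 have several and 12457 are not listed; 21185 were matched to the RefSeq gene table by Entrez identifier and 0 symbols changed. Genes with several probe sets (1386) took the one with the highest mean, which gave 18820 genes. limma 3.58.1 in R 4.3.3 fitted group and lymphoma over 12 arrays (6 residual degrees of freedom, moderated by eBayes without trend), so all groups share 1 spread. The fit was tested on simulated data with independent noise of the same spread in every group, so the simulation could not test that sharing. The labels and titles pair the arrays by lymphoma, and arrays of the same lymphoma deviated together from their group means (18 correlations of 0.813 to 0.907). Correlations between different lymphomas and groups ran from -0.574 to -0.248. Deviations from a group mean cancel out over its lymphomas. Given the positive correlations within lymphomas, negative ones between them follow from this centring and are no separate evidence for the pairing. Genes under the 30th percentile of mean level are called dim.

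The genes named were the 15 largest called rises and falls, up to 8 called members of each of 40 gene lists (or 2 with the smallest p), the 3 largest uncalled changes each way, fixed receptor and regulator genes, and the 3 smallest interaction p each way. The members and lists were chosen with earlier results of these data known. Alternatives were the lymphoma block, the arrays fitted, the probe set rule, the dim filter, 3 scalings, a trended robust fit, and leaving out each lymphoma or array. List genes without a probe set of their own were not analysed here.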

Additional observations from a re-analysis of the deposited data

Results flagged for a closer look

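The difference between BCR-negative and BCR-positive cells had opposite signs without and with CHIR99021 in every lymphoma for 2 of the genes named. Both were named for a small interaction p, so the opposite signs are no test, and most of their values with the inhibitor lay close to 0. Rfc1, the DNA clamp loader, differed by -0.27, -0.40 and -0.30 without the inhibitor and by 0.11, 0.03 and 0.01 with it in lymphomas 2564, 2646 and 2676, an interaction of 0.37283 on the log2 scale. Smarca5, the chromatin remodeller SNF2H, differed by -0.32, -0.30 and -0.32 and by 0.01, 0.04 and 0.20, an interaction of 0.39636. The test of the interaction in limma gave an adjusted p of 0.928 for both genes, so neither difference between the cultures passed it.

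Signal also changed in probe sets that entered no gene comparison. Of 14338 probe sets without a single gene symbol, 19 were called between BCR-negative and BCR-positive untreated cells when limma was fitted to all probe sets, 17 higher and 2 lower. Their genes are not named here.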

How the results depend on the processing

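For BCR loss in untreated cultures limma called 791 genes (359 higher, 432 lower). With no replicate block, that is without pairing by lymphoma, it called 5 (3 and 2), with a random replicate block 75 (48 and 27), and on the 6 arrays alone 0 (0 and 0). Subtracting array medians gave 350 higher and 738 lower (67.8% lower), cyclic loess 448 and 216 (32.5%) and quantile normalization 372 and 293 (44.1%, against 54.6% in the fit reported). Probe set means (785), leaving out dim genes (999) and a trended robust fit (850) gave counts within 1.5 times of it. Leaving out a lymphoma or an untreated array gave from 0 to 1204 calls, 0 to 569 higher and 0 to 635 lower, with 0 without lymphoma 2646. In CHIR99021 cultures the 3 calls became 0 with no replicate block, a random block, dim genes left out, array medians subtracted, cyclic loess, quantile normalization and a trended robust fit, and 0 to 4 with arrays left out. The interaction gave 0 calls, and 0 to 2 with arrays left out, the 2 without the BCR-negative untreated array of 2676. Of the 154 named genes that were called, 0 changed sign under any setting, which changing the block or leaving out a lymphoma could not have brought about. Of these genes 127 were still called with cyclic loess, 140 with quantile normalization, 22 with a random block, 2 with no block and from 0 to 125 with arrays left out. The cause of these changes was not tested. Subtracting array medians shifted the median of all genes by -0.0277 and the other 2 scalings by less. List medians that changed sign under a setting were close to 0, such as V(D)J recombination (-0.06, and 0.01 with cyclic loess) and TNF family (0.02, and -0.01 with array medians subtracted). Cross-hybridisation and dim probes limit low genes, and 3 genes called higher were dim.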

Other observations

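Further groups were looked at after their values were seen, so the counts describe these arrays and support nothing. Of all genes 1.91% were called higher and 2.3% lower. Of 38 proteasome subunits 8 were called lower and 0 higher by limma, 35 had a negative difference and the median was -0.18, with Psmd12, a subunit of the regulatory lid, at -0.25, -0.41 and -0.19 in lymphomas 2564, 2646 and 2676. All 9 subunits of the RNA exosome, which degrades RNA from its end, had a negative difference and 3 were called, among them Exosc8 (-0.42 ± 0.0950). Of 18 nucleoporins 5 were called lower, of 12 RNA polymerase II subunits 3, of 7 assembly factors of complex I 3, of 9 assembly factors of cytochrome oxidase 3, and of 8 chaperonin subunits 1. Ndufaf4, which helps to assemble complex I, differed by -0.64 ± 0.137, least in lymphoma 2564. In the other direction, Ypel3 and Ypel5 of a small conserved family rose by 1.08 ± 0.126 and 0.85 ± 0.149, and Tmc6, Tmc7 and Tmc8 were the 3 called of 8 TMC membrane proteins. Of 28 sorting nexins 3 were called higher, and of 23 DHHC palmitoyltransferases 1 was called higher and 3 lower.

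Of genes of the IL-6 receptor system, chosen likewise, some rose in the untreated cultures, as Il6st did. Il6ra, the IL-6 receptor chain, rose by 0.35, 1.15 and 0.67, Clcf1, a ligand of the same family, by 0.79, 0.75 and 0.29, and Socs1, a feedback inhibitor of cytokine signalling, by 0.23, 0.70 and 0.87 in the 3 lymphomas, with adjusted p of 0.0292, 0.0390 and 0.0392 in limma. Socs3, the feedback inhibitor of Il6st itself, differed by -0.06 ± 0.0616 and was not called (limma, adjusted p = 0.708). Prkd2, a kinase downstream of diacylglycerol, and Dgka, which removes that lipid, rose by 0.92 ± 0.0771 and 1.05 ± 0.137 (limma, adjusted p = 0.00146 and 0.00963). Maf1, a repressor of RNA polymerase III, rose by 0.36 ± 0.0718 (limma, adjusted p = 0.0312).

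Differences in genes of immature B cells varied between lymphomas, and no test was made of that. Igll1 and Vpreb1, which form the surrogate light chain, differed by -0.09, 1.77 and 0.22 and -0.09, 1.10 and 0.50 in untreated cultures of 2564, 2646 and 2676 and by -0.06, 0.89 and 0.49 and 0.02, 0.54 and 1.05 with CHIR99021. Dntt differed by 0.14, 4.85 and 0.52 and 0.17, 4.27 and 0.13, so that its large value appeared in lymphoma 2646 in both kinds of culture. Rag2 differed by 0.78, 1.04 and 1.78 and 0.94, 1.37 and 1.96, positive on all 6 occasions.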
